A study of Caenorhabditis elegans with 6 samples.

Results

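The genes examined here are the SDC recruiters of the dosage compensation complex, *sdc-1*, *sdc-2* and *sdc-3*, the histone demethylase gene *dpy-21*, the sex switch gene *xol-1*, and its regulators *sex-1* and *fox-1*. These 7 genes, of 46772 in the count tables, were chosen by name for their roles, at a time when fold changes of the same comparison were known, that of *sdc-3* among them. Their values between the genotypes, and how many of them passed a threshold, are therefore given as a description, and no p-value is given for them. RNA was sequenced from gonads dissected from young adult *Caenorhabditis elegans*, 3 libraries of the wildtype strain N2 (WT) and 3 of the strain *set-2(bn129)*. *set-2* encodes the H3K4 methyltransferase of the COMPASS complex, *bn129* is a loss-of-function allele, and the mutant animals were homozygotes from heterozygous mothers. Each library pooled gonads of several animals, with the distal side of the elbow cut retained, and the labels do not state whether replicates came from separate cultures, so the errors below measure the spread between these libraries only. Hermaphrodite germ cells, sheath cells and carried-over soma are not separated in such RNA, and fewer cells of a type cannot be told apart from less RNA per cell.

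In worms, the number of X chromosomes sets the activity of XOL-1, a protein that is high in XO embryos and directs male development. X-linked signals, among them the nuclear hormone receptor SEX-1 and the RNA-binding protein FOX-1, hold *xol-1* down in XX embryos, while autosomal signals raise it. Where XOL-1 is low, SDC-2 with SDC-1 and SDC-3 brings a condensin complex to both X chromosomes and lowers their transcription in the soma, and the SDC proteins also repress the male-promoting gene *her-1*. DPY-21 removes a methyl group from H4K20 and so enriches the mono-methylated form on the X, and it also acts in germ cells. DPY-30 belongs to both the dosage compensation complex and COMPASS.

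Libraries held 23403396 to 30724547 counts. *set-2* itself (chromosome III, 4922427 to 4930204 on WBcel235) had 154 ± 6.21 CPM (counts scaled to a common library size by TMM; SD, n = 3) in WT and 93.5 ± 5.98 (SD, n = 3) in *set-2* libraries, a fall of 0.71 on the log2 scale with all mutant libraries below all WT libraries. Markers of body wall muscle and intestine were lower in *set-2* libraries, and other somatic lists differed less evenly. Of all genes tested with edgeR, 21.1% were lower in *set-2* at an adjusted p-value of 0.05. Body wall muscle markers summed to 375 to 641 CPM in WT and 286 to 337 CPM in *set-2* libraries, and 15 of the 16 passed an adjusted p-value of 0.05, all of them lower. Intestine markers summed to 276 to 708 CPM and 93.4 to 193 CPM, with 12 of 12 tested lower. Hypodermis markers summed to 205 to 279 CPM and 170.4 to 185 CPM (3 of 5 tested lower), and neuron markers to 88.5 to 93.3 CPM and 81.5 to 84.6 CPM (3 of 12 tested lower). Somatic gonad markers summed to 60.8 to 77.6 CPM and 35.4 to 38.6 CPM, with *ehn-3* at 0 in every library. Of the 4 tested, 1 was lower, *inx-8* at -1.24 on the log2 scale. *inx-9* lay at -0.19, *acy-4* at -0.29 and *lim-7* at 0.46, and these did not pass. Germ cell markers summed to 5312 to 5653 CPM in WT and 5325 to 5735 CPM in *set-2* libraries. Of the 16, 1 was higher (*him-3*, 0.39 on the log2 scale) and 4 were lower (*gld-1* by 0.23, the others by less). Of all genes tested, 20.3% were higher and 21.1% lower. Oocyte markers summed to 12082 to 12358 CPM and 11759.9 to 12060.4 CPM, with 3 of 11 lower, among them *perm-2* at -0.75 and *perm-4* at -0.86. Sperm markers were scarce, at 12.6 to 14.8 CPM and 26.7 to 30.1 CPM, with *spe-9* and *spe-15* higher and *spe-41* lower of the 3 tested, and the major sperm protein genes *msp-19* and *msp-142* were at 0 in every library.

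All 7 genes had enough counts to be tested, with 39 to 4313 counts per library. The genotypes were compared with the quasi-likelihood test of edgeR over 9431 genes. Of these genes, 41.4% passed an adjusted p-value of 0.05, 20.3% higher and 21.1% lower in *set-2*, and 15.3% passed it with a change of 0.58 or more on the log2 scale, up or down. Of the 7 genes, 2 lay past both thresholds, *sdc-3* with a lower and *xol-1* with a higher level in *set-2* gonads, a count that follows from values known when the genes were chosen and from which nothing is read. For 3 of the 7, *sdc-3*, *xol-1* and *sex-1*, the libraries of the genotypes did not overlap, as for 52.9% of all genes tested. The median log2 fold change was -0.23 over the 7 genes and -0.0009 over all genes tested. By the adjusted p-value alone, *dpy-21* joined them with no low count filter and with DESeq2's Wald test, and *sex-1* with a filter of at least 10 counts in every library. *sdc-3* was the only 1 of the 7 with the muscle and intestine covariate, without WT replicate 2 or without *set-2* replicate 2. *dpy-21* took the place of *xol-1* without WT replicate 3 or *set-2* replicate 3, and *sdc-1* and *sdc-2* brought the count to 4 without WT replicate 1.

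Of the recruiters, *sdc-3* (WBGene00004747, chromosome V, 15039148 to 15048207 on WBcel235, minus strand) encodes a zinc finger protein that binds the X with SDC-2. It had 177, 173 and 177 CPM in WT replicates 1, 2 and 3, and 34.0, 42.3 and 51.8 CPM in *set-2* replicates 1, 2 and 3. The WT libraries lay close to each other, while the mutant libraries were more spread and all far below. The mean was 176 ± 2.47 CPM (SD, n = 3) in WT and 42.7 ± 8.91 CPM (SD, n = 3) in *set-2*, a 4.10-fold lower level and a log2 fold change of -2.04 (standard error 0.11, 95% confidence interval -2.27 to -1.80). No annotated exon of another gene overlaps those of *sdc-3* on either strand, so its counts are not shared with a neighbour.

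The wildtype level of *sdc-3* stayed at 173 to 177 CPM while muscle and intestine markers together went from 650.4 CPM in WT replicate 1 to 1130 and 1349 CPM in replicates 2 and 3. The covariate used here was the mean log2 CPM of the tested muscle and intestine markers, not their summed CPM. With it the log2 fold change of *sdc-3* was -2.13. With no covariate it was -1.89 to -2.20 when single libraries were left out. The level of this covariate differs between the genotypes, and somatic gonad markers are not part of it. The part of carried-over soma in the *sdc-3* difference was not tested.

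**Figure D1:**
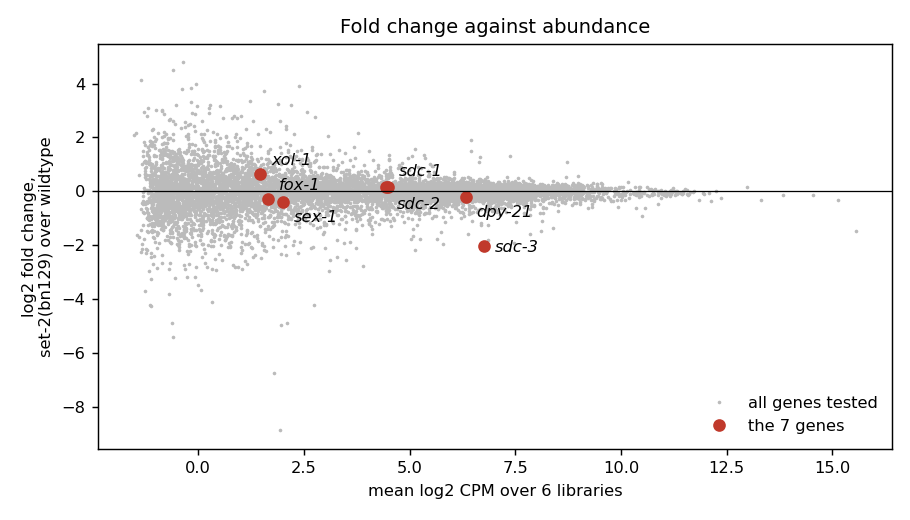
Log2 fold change (set-2(bn129) over wildtype) against mean log2 CPM over the 6 libraries for the 9431 genes tested (grey points), with the 7 genes in red. sdc-3 lies at -2.04, a value known when the genes were chosen, and the other 6 lie between -0.40 and 0.65.

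For the other recruiters the genotypes overlapped. *sdc-1* (chromosome X, 16275763 to 16282534, plus strand), a zinc finger protein gene, had 23.1, 21.2 and 18.8 CPM in WT and 22.1, 24.0 and 24.4 CPM in *set-2* replicates 1 to 3. *sdc-2* (chromosome X, 11522707 to 11533450, plus strand), whose product is the one that recognises the X, had 24.4, 18.3 and 18.96 CPM in WT and 19.3, 25.6 and 24.1 CPM in *set-2*. Neither gene had all libraries of one genotype on one side of the other. The log2 fold change was 0.16 for *sdc-1* (standard error 0.084, 95% confidence interval -0.025 to 0.34) and 0.16 for *sdc-2* (standard error 0.12, interval -0.11 to 0.43), and with the muscle and intestine covariate it was -0.13 and -0.28. Exons of *sdc-2* share 1181 positions with *anr-16* on the opposite strand, which had at most 1 count in a library.

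Because 2 genes counted in the same library share its depth, their ratio does not depend on how libraries were scaled. The count of *sdc-3* was 7.69, 8.17 and 9.40 times that of *sdc-1* in WT replicates 1, 2 and 3, and 1.54, 1.76 and 2.13 times in *set-2* replicates. Against *sdc-2* it was 7.26, 9.44 and 9.34 times in WT and 1.76, 1.65 and 2.15 times in *set-2*. Against *dpy-21* it was 1.95, 1.90 and 2.30 times in WT, and 0.543, 0.534 and 0.652 times in *set-2*. For all 3 partners the ratio was lower in every mutant library than in any WT library. This follows from the fall of *sdc-3*, known when the genes were chosen, since the partners changed far less, and nothing further is read from it. Per kilobase of exon, *sdc-3* exceeded *sdc-1* by a mean of 4.79 times in WT and was level with it in *set-2*, at 1.03 times.

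**Figure D2:**
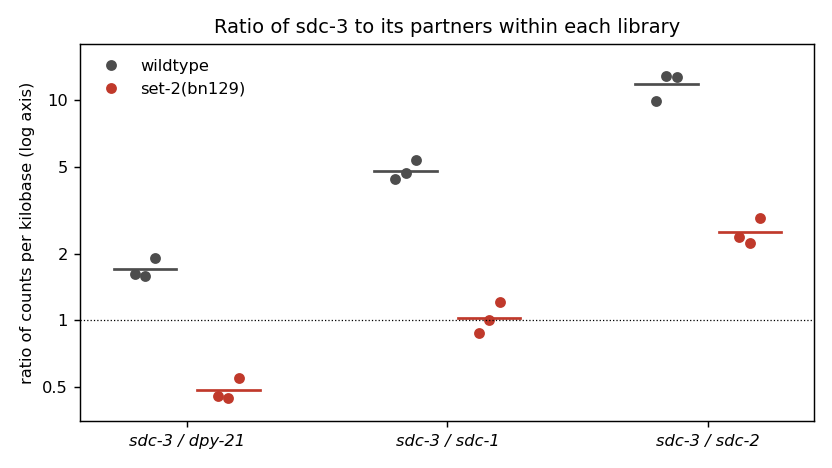
Ratio of sdc-3 to dpy-21, sdc-1 and sdc-2 within each library, as counts per kilobase of exon on a log axis. Points are libraries and bars are means of 3. Every set-2(bn129) point lies below every wildtype point, which follows from the fall of sdc-3 known when the genes were chosen. The mean ratio to dpy-21 is 1.72 in wildtype and 0.482 in set-2(bn129).

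*dpy-21* (WBGene00001080, chromosome V, 17936282 to 17949193, minus strand), the H4K20 demethylase gene, had 91.1, 90.8 and 76.9 CPM in WT replicates 1, 2 and 3 and 62.6, 79.2 and 79.4 CPM in *set-2* replicates. WT replicate 3 lay below *set-2* replicates 2 and 3, so the genotypes overlapped. The log2 fold change was -0.23 (standard error 0.089, interval -0.42 to -0.03). It was -0.12 without *set-2* replicate 1 and -0.43 with the muscle and intestine covariate. Of the methyltransferases that write H4K20 methylation, *set-1*, which places the first methyl group, lay at -0.02 on the log2 scale (edgeR adjusted p = 0.66). *set-4*, which adds further methyl groups, rose by 0.14 (standard error 0.045, edgeR adjusted p = 0.027). This call was not made by DESeq2's Wald test (adjusted p = 0.055), nor by edgeR with the muscle and intestine covariate (adjusted p = 0.46), without WT replicate 2 (adjusted p = 0.088), without WT replicate 3 (0.061) or without *set-2* replicate 1 (0.089).

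The switch gene *xol-1* (WBGene00006962, chromosome X, 8041313 to 8044409, plus strand) was scarce in both genotypes. It had 62, 39 and 48 counts in WT replicates 1, 2 and 3 and 77, 86 and 105 counts in *set-2* replicates, or 2.55, 1.66 and 1.98 CPM against 2.90, 3.48 and 3.37 CPM. Every mutant library lay above every WT library, and the gap between the nearest pair, WT replicate 1 and *set-2* replicate 1, was smaller than the spread within WT. The log2 fold change was 0.65 (standard error 0.20, interval 0.22 to 1.09), a 1.57-fold higher level. WT replicate 1, the highest of the WT libraries for *xol-1*, was also the lowest for muscle and intestine markers, and with these markers as a covariate the log2 fold change was 0.14. With no covariate, it was 0.84 without WT replicate 1, 0.52 without WT replicate 2 and 0.62 without WT replicate 3. It was 0.73 without *set-2* replicate 1, 0.61 without *set-2* replicate 2 and 0.63 without *set-2* replicate 3. The part of carried-over soma in this difference was not tested.

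**Figure D3:**
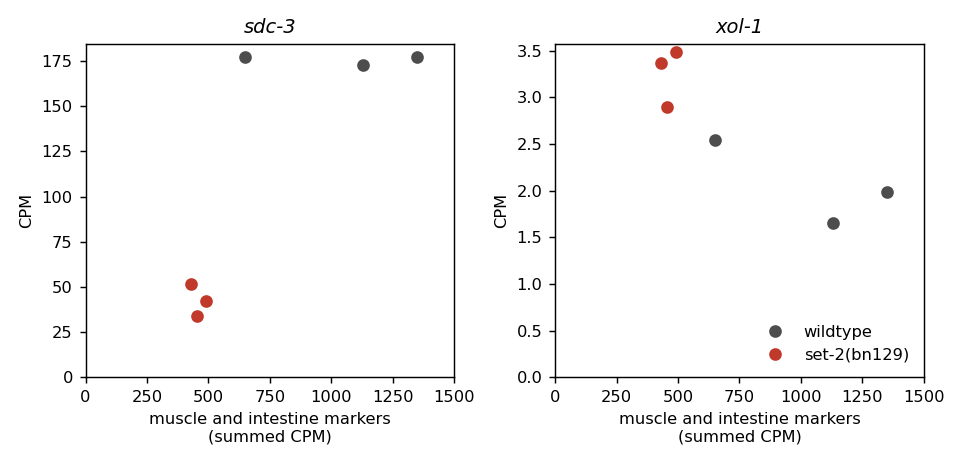
CPM of sdc-3 (left) and xol-1 (right) in each library against the summed CPM of body wall muscle and intestine markers, both axes linear and starting at 0. sdc-3 stays at 173 to 177 CPM across the wildtype libraries, while xol-1 is 2.55 CPM in the wildtype library with the fewest marker reads and 1.66 and 1.98 CPM in the others.

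Of the *xol-1* repressors, *sex-1* and *fox-1* had a lower mean level in *set-2* gonads, while *ceh-39*, given below, lay at 0.07 on the log2 scale. *sex-1* (WBGene00004786, chromosome X, 10201329 to 10205421, minus strand) had 4.44, 4.84 and 4.21 CPM in WT replicates 1, 2 and 3 and 2.98, 3.72 and 3.50 CPM in *set-2*. All mutant libraries were below all WT libraries, with a log2 fold change of -0.40 (standard error 0.15, interval -0.74 to -0.07). *fox-1* (WBGene00001484, chromosome X, 2445117 to 2459893, minus strand) had 3.33, 3.99 and 2.81 CPM in WT and 2.34, 3.64 and 2.41 CPM in *set-2*. Its libraries overlapped, since *set-2* replicate 2 lay above WT replicates 1 and 3, and the log2 fold change was -0.28 (standard error 0.22, interval -0.75 to 0.20). It had 62 to 94 counts per library. Its exons share 9 positions with *R04B3.6* on the opposite strand, which had no counts.

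Within libraries, *sex-1* had 1.74, 2.92 and 2.13 counts for each *xol-1* count in WT replicates 1, 2 and 3, and 1.03, 1.07 and 1.04 in *set-2*. For *fox-1* the ratio was 1.31, 2.41 and 1.42 in WT and 0.805, 1.05 and 0.714 in *set-2*. Neither ratio overlapped between the genotypes. Both have *xol-1* as denominator, higher in every *set-2* library, a value known when the genes were chosen. Nothing further is read from these ratios. Other genes of the X-to-autosome signal were counted from a separate list of 3. The autosomal signal gene *sea-2* (chromosome II, 3950377 to 3972140), which raises *xol-1* in embryos, had 19.2, 20.5 and 15.99 CPM in WT and 7.01, 9.84 and 9.38 CPM in *set-2*. It fell by 1.09 in log2 units (standard error 0.14, edgeR adjusted p = 1.3e-04), and reads could be shared with *K10G6.11*, whose exons overlap its own on the same strand. *sea-1* (chromosome II, 3671908 to 3673593), a T-box gene with the same role, went from 7.77, 6.80 and 7.19 CPM to 4.11, 4.94 and 4.43 CPM and fell by 0.69 (standard error 0.13, edgeR adjusted p = 0.0016, and 0.070 with the muscle and intestine covariate). *ceh-39*, an X-linked homeobox gene that represses *xol-1*, had a log2 fold change of 0.07 (interval -0.13 to 0.27, edgeR adjusted p = 0.58). The list's median log2 fold change was -0.69, against -0.0009 over all genes tested. Per *xol-1* count, *ceh-39* had 5.34, 8.46 and 7.52 counts in WT and 4.70, 4.24 and 4.79 in *set-2*. For *sea-1* the ratio was 3.05, 4.10 and 3.63 in WT and 1.42, 1.42 and 1.31 in *set-2*. For *sea-2* it was 7.55, 12.4 and 8.06 in WT and 2.42, 2.83 and 2.78 in *set-2*. These ratios did not overlap either, that of *ceh-39* included, though its own log2 fold change was 0.07. All share the scarce *xol-1* as denominator, so their separation follows in part from *xol-1*, and nothing further is read from it.

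Levels were compared between genes only per length, as RPKM, the CPM value divided by the length of the exons in kilobases. In WT, *sdc-3* was the highest of the 7, at 25.9 ± 0.365 RPKM (SD, n = 3), above *dpy-21* at 15.2 ± 1.43, *sdc-1* at 5.45 ± 0.549, *sex-1* at 2.37 ± 0.169, *sdc-2* at 2.22 ± 0.362, *fox-1* at 1.34 ± 0.236 and *xol-1* at 0.839 ± 0.183 RPKM. Only *sex-1* and *sdc-2* were neighbours in this order whose WT libraries overlapped. In *set-2* libraries *dpy-21* came first, at 13.01 ± 1.71 RPKM (SD, n = 3). *sdc-3*, at 6.30 ± 1.31 RPKM, overlapped *sdc-1*, at 6.09 ± 0.322 RPKM. *sdc-2*, at 2.49 ± 0.354 RPKM, and *sex-1*, at 1.79 ± 0.202 RPKM, followed without overlap. *xol-1*, at 1.32 ± 0.125 RPKM, and *fox-1*, at 1.11 ± 0.291 RPKM, overlapped. Among the 8850 protein-coding genes tested, the percentile of *sdc-3* by level per length was 51.6 in WT and 38.8 in *set-2*, and that of *xol-1* was 16.7 and 22.2. Per length and among these tested genes, all 7 thus ranged from low to middling. Genes with too few counts to be tested are not part of this ranking. The biological coefficient of variation that edgeR estimated between replicates was lowest for *sdc-1*, at 7.07%, and highest for *fox-1*, at 16.3%, with 9.01% for *sdc-3* and 13.4% for *xol-1*.

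**Figure D4:**
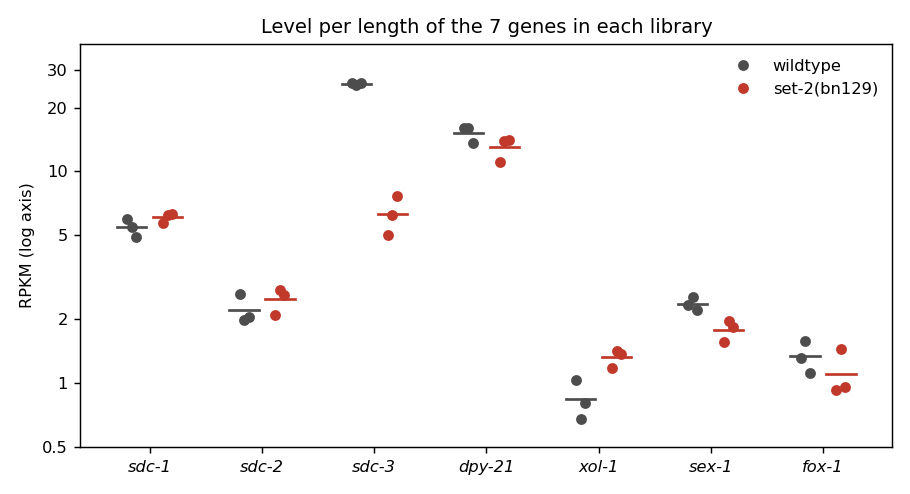
RPKM of the 7 genes in each library, on a log axis. Points are libraries (grey wildtype, red set-2(bn129)) and bars are means of 3. sdc-3 goes from 25.9 to 6.30 RPKM, down to the level of sdc-1 at 6.09 RPKM, and dpy-21 goes from 15.2 to 13.01 RPKM.

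The other subunits of the dosage compensation complex were taken from a list of 6, all tested. Their summed level was 1026 to 1043 CPM in WT and 1034 to 1077 CPM in *set-2* libraries. Of the 6, 1 rose and 2 fell, where 41.4% of all genes tested passed, and the median log2 fold change was 0.02. The condensin subunit gene *dpy-26* rose by 0.21 (standard error 0.036, edgeR adjusted p = 0.0010), while *dpy-28* fell by 0.13 (edgeR adjusted p = 0.033) and *capg-1* by 0.12 (edgeR adjusted p = 0.037). *dpy-27*, the subunit found only in this complex, had 34.5, 32.0 and 31.8 CPM in WT and 29.6, 37.5 and 34.0 CPM in *set-2*, a log2 fold change of 0.04 (interval -0.14 to 0.22). *mix-1* lay at 0.09 (edgeR adjusted p = 0.058). *dpy-30*, shared with COMPASS, had 112, 111 and 123 CPM in WT and 119.3, 112 and 115 CPM in *set-2*, a log2 fold change of -0.002 (interval -0.10 to 0.10). Exons of *dpy-26*, *capg-1* and *dpy-30* share 84, 21 and 7 positions with another gene on the same strand. The calls of *dpy-28* and *capg-1* were lost with DESeq2's Wald test (adjusted p = 0.056 and 0.068), and with edgeR under upper quartile normalization (0.058 and 0.071), no low count filter (0.055 and 0.12) or the replicate block (0.055 and 0.078), as well as without WT replicate 1 (0.088 and 0.12), WT replicate 2 (0.071 and 0.077), *set-2* replicate 1 (0.12 and 0.13) or *set-2* replicate 2 (0.080 and 0.071). No subunit passed with the muscle and intestine covariate, and *mix-1* passed without *set-2* replicate 1 (edgeR adjusted p = 0.039), with upper quartile normalization (0.034) and with no low count filter (0.049).

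Of 12 genes that act below the switch in sex determination, 8 were tested and 2 of them passed, both lower in *set-2*, with a median log2 fold change of -0.11 over the 8, where 21.1% of all genes tested were lower. *tra-1*, the zinc finger gene at the end of the pathway, went from 112, 118 and 106 CPM to 59.1, 62.9 and 71.2 CPM and fell by 0.80 (standard error 0.064, edgeR adjusted p = 7.3e-06). *fem-3*, which promotes male fates and spermatogenesis, went from 80.9, 77.2 and 87.4 CPM to 56.5, 52.8 and 49.8 CPM and fell by 0.63 (standard error 0.058, edgeR adjusted p = 1.8e-05). The SDC target *her-1* was near absent, with 1, 0 and 0 counts in WT and 2, 3 and 4 counts in *set-2* replicates, too few to be tested. *fog-3*, *mab-3* and *dmd-3* also had at most 5 counts in any library.

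**Figure D5:**
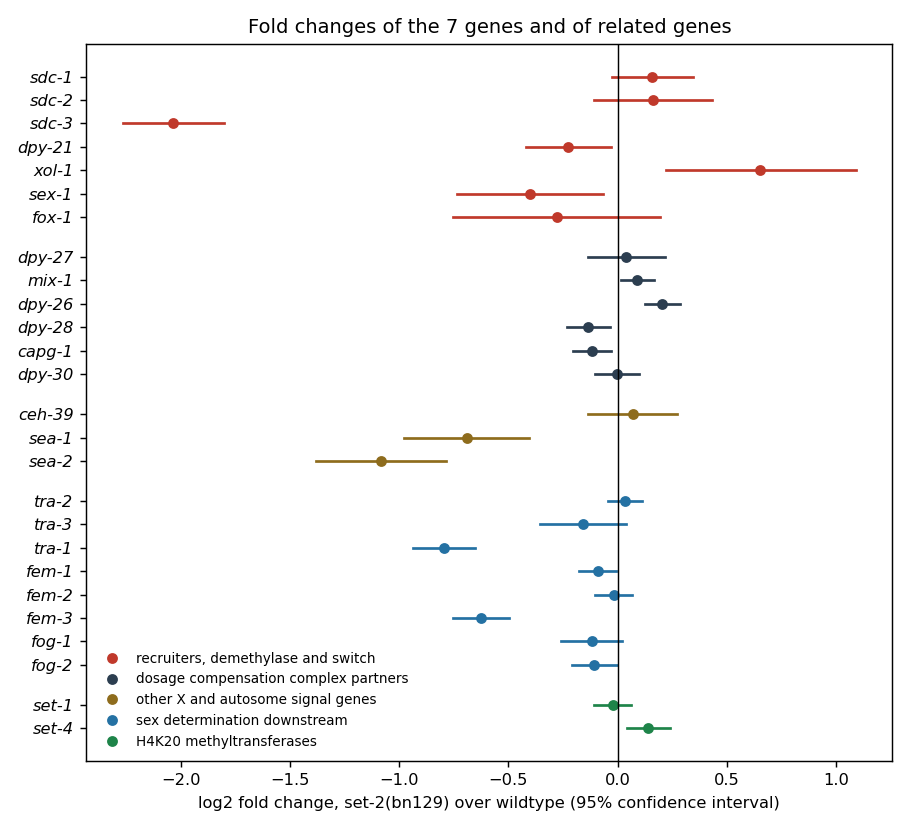
Log2 fold change (set-2(bn129) over wildtype) with its 95% confidence interval for the 7 genes and the 19 tested genes of 4 related lists. sdc-3 lies at -2.04, sea-2 at -1.09 and tra-1 at -0.80, while the subunits of the dosage compensation complex lie between -0.13 and 0.21.

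The nearest tested gene on each side of each of the 7 was examined for a change in the same direction. Of these 14 neighbours, 953 to 23929 bases away, 6 passed the adjusted p-value, 2 higher and 4 lower, a share close to the 41.4% of all genes tested. Beside *sdc-3* lie *mcm-3*, a replication helicase gene, which rose by 0.11 from 389 to 420 CPM (edgeR adjusted p = 0.029), and *cng-1*, at 0.692 and 0.577 CPM (log2 fold change -0.27, edgeR adjusted p = 0.57). The first is a change in the other direction from *sdc-3*, and it was lost without WT replicate 1 (edgeR adjusted p = 0.074), WT replicate 2 (0.10) or *set-2* replicate 2 (0.074), with the replicate block (0.071) and with the covariate (0.26). Beside *dpy-21*, *gck-3* fell by 0.77 (edgeR adjusted p = 4.4e-05) and *usp-50* lay at -0.17 (edgeR adjusted p = 0.13). Beside *xol-1* lie *dim-1*, itself on the muscle marker list, which fell by 0.81 (edgeR adjusted p = 0.0074, and 0.87 with the muscle and intestine covariate), and *C34D10.1*, which lay at 0.07 (edgeR adjusted p = 0.79). Beside *sdc-2*, *hpo-34* fell by 1.22 (edgeR adjusted p = 0.0069), and with the muscle and intestine covariate it lay at 0.42, and beside *sdc-1*, *mua-6* fell by 0.75 (edgeR adjusted p = 0.019, and 0.051 to 0.074 without WT replicate 2, WT replicate 3, *set-2* replicate 1 or *set-2* replicate 2, and 0.59 with the covariate). Beside *sex-1*, *F44A6.4* rose by 1.02 from 0.499 to 1.01 CPM (edgeR adjusted p = 0.015, and 0.051 to 0.058 without WT replicate 2, *set-2* replicate 1 or *set-2* replicate 3, 0.097 with DESeq2's Wald test and 0.45 with the covariate). The remaining neighbours, *twk-22*, *selt-1.1*, *nucb-1*, *gid-2* and *R04B3.2*, had log2 fold changes of -0.44, -0.14, -0.29, -0.14 and -0.25 and did not pass, though *nucb-1* did without WT replicate 3 (edgeR adjusted p = 0.034).

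The genes whose profile over the 6 libraries was nearest to that of *sdc-3*, by the root mean square distance between centred log2 CPM values, were *tni-3* (distance 0.15), *C16C8.20* (0.16), *F42A9.6* (0.19), *ugt-41* (0.19) and *Y49E10.4* (0.19). They were picked by this likeness in the same libraries, so their lower level in *set-2* follows from the choice. Nothing on shared function or regulation is read from it. These genes lie on chromosomes V, II, IV, V and III. *Y49E10.4* was the closest to *sdc-3* in abundance, with 92.8, 87.4 and 86.4 CPM in WT and 23.5, 22.4 and 23.1 CPM in *set-2*, while *ugt-41* had only 2 to 4 counts in each mutant library. *tni-3*, a troponin gene of muscle, had 3.00, 3.10 and 3.55 CPM in WT and 0.641, 0.769 and 1.16 CPM in *set-2*. Exons of *C16C8.20* and *Y49E10.4* overlap another gene on the same strand.

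Of the 7 genes, 5 lie on the X chromosome and 2, *sdc-3* and *dpy-21*, on chromosome V. The X is the chromosome on which the dosage compensation complex acts in the soma, and it is largely silent in the germline. It held 1.05% to 1.10% of counts in WT and 1.10% to 1.20% in *set-2* libraries, while ribosomal RNA genes took 13.6% to 14.9% and 8.06% to 10.6%. With ribosomal RNA genes left out the X share was 1.22% to 1.28% in WT and 1.20% to 1.32% in *set-2*, and the genotypes overlapped. Of 1119 X-linked genes tested, 17.5% were higher and 18.1% lower in *set-2* at the adjusted p-value, against 20.3% and 21.1% of all genes, and their median log2 fold change was -0.02. With the fold threshold of 0.58 added, 8.94% were higher and 14.3% lower, against 6.99% and 8.36% of all genes. In the lowest of 5 expression classes, 9.88% of 334 X-linked genes were higher and 19.5% lower, and 15.96% and 12.98% of autosomal genes. In the third class the order was the other way, with 27.9% of 298 X-linked genes higher and 16.8% lower, and 18.5% and 26.2% of autosomal genes. Muscle and intestine markers were lower in *set-2* at the same time, as given above. With their level as a covariate 26 X-linked genes were higher and 43 lower, where 196 and 202 were without it. Over all genes tested, 836 passed with this covariate and 3908 without it, so the drop was not particular to the X. The difference between the X and the autosomes was not tested.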

How the data were processed

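Reads from ribosomal RNA depleted libraries of dissected gonads were mapped by the authors with STAR 2.4.1d against genome release WS254, reads of low mapping quality were removed with SAMtools 0.1.19, and HTSeq 0.7.2 counted reads per gene. The deposited values are these raw counts, by the authors and without normalization, and 0 rows named no gene. The labels call the RNA polyadenylated, while their protocol describes total RNA. The strand setting of the counting is not given in the sources used here. A deposited table of gene numbers from the authors' own comparison was not used.

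Counts of 46772 genes in 3 libraries per genotype were analysed with edgeR 4.0.16 in R 4.3.3 (filterByExpr, TMM normalization, estimateDisp, glmQLFit, glmQLFTest, genotype as the only term), with Benjamini-Hochberg adjustment of p-values across all 9431 genes that passed the filter. Fold changes are edgeR's, which add a small prior count, while 95% confidence intervals were taken from the unshrunk coefficient. CPM used TMM library sizes. Positions and exon lengths came from the Ensembl annotation of WBcel235, which held 46549 of the gene identifiers, and all 139 list genes were matched. Transcripts of a gene were not told apart. The members and lists were chosen with earlier results of these data known. Named genes are the 7 members, the related lists, the nearest tested neighbours and the 5 nearest profiles to *sdc-3*. Replicate pairs differed by more than sampling noise (chi-square over its degrees of freedom, 9.15 to 28.9) and each was counted. The alternatives tried were upper quartile normalization, size factors of DESeq2, other count filters, DESeq2 1.42.0, a replicate block, a muscle and intestine covariate, removal of ribosomal RNA genes and leaving out each library. The covariate was the mean log2 CPM of the tested markers of both tissues.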

Additional observations from a re-analysis of the deposited data

How the results depend on the processing

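The log2 fold change of *sdc-3* was -2.13 to -2.01 under the alternatives that kept all libraries and -2.20 to -1.89 with single libraries left out. The number of the 7 genes past the adjusted p-value went from 2 to 1 with the muscle and intestine covariate, whose level differs between the genotypes, and was 1 to 4 with single libraries left out. With that covariate 836 genes passed the adjusted p-value where 3908 did without it, 477 with the fold threshold where 1447 did without it, 0 of the dosage compensation complex partners where 3 did without it, and 26 and 43 X-linked genes were higher and lower. A log2 fold threshold of 1 left 836 genes. Past the adjusted p-value were 1 of the partners with DESeq2's Wald test, 1 with the replicate block and 1 to 3 with single libraries left out. Without single libraries 2987 to 3716 genes passed, 1233 to 1619 with the fold threshold, and 143 to 216 X-linked genes were higher and 161 to 220 lower. Same-numbered libraries of the genotypes did not deviate together (correlations of -0.09, -0.05 and -0.17), and with the replicate block 2 of the 7 genes passed, *sdc-3* at -2.05.

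Directions turned for genes that had not passed, among them *sdc-1*, at -0.13, and *sdc-2*, at -0.28, with the muscle and intestine covariate. *dpy-30* was at 0.012 with upper quartile normalization, 0.020 with no low count filter, 0.088 with the covariate, 0.0016 with DESeq2's Wald test and -0.031 to 0.042 with single libraries left out. *dpy-27* was at -0.071 and *C34D10.1* at -0.043 with the covariate, and *set-1* at 0.068. With single libraries left out *dpy-27* was at -0.039 to 0.13, *set-1* at -0.039 to 0.0024, *cng-1* at -0.50 to 0.13 and *gid-2* at -0.58 to 0.057. Of the genes that had passed, *hpo-34* turned, to 0.42 with the covariate. The cause was not tested. *xol-1*, *sex-1* and *fox-1*, with 39 to 114 counts per library, are the least precisely measured of the 7.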
